A study of Mus musculus with 18 samples.

Results

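Immediate early genes are transcribed within minutes of a stimulus from factors that are already present in the cell, and their mRNAs are short-lived. They encode transcription factors of the AP-1, EGR, NR4A and Kruppel-like families, together with phosphatases, mRNA decay factors and other proteins that switch the response off again. Heat shock genes encode chaperones and are driven by heat shock factors when proteins misfold. In microglia, the resident macrophages of the retina, both groups respond to activation, and they are also known to rise when tissue is dissociated with enzymes and cells are sorted, so a level measured after sorting can hold both.

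The genes described here are 38 such genes, chosen by symbol, and all 38 were found among the 54532 genes of the count table. They were followed in 18 RNA-seq libraries from retinas of rd1 mice on the FVB background at postnatal day 30, a strain in which rods and then cones die. Every mouse had been given AAV8-GFP under the retina, alone in the GFP group and together with AAV8-TGFB1 in the TGFB1 group, so that no group lacks virus or degeneration. TGFB1 is a cytokine on which the resting state of microglia depends. No source used here gives the promoter of the viruses or the species of the TGFB1 sequence. After papain digestion, cells were stained with antibodies and sorted into lysis buffer as microglia or as non-microglia, that is, the other retinal cells together. Each treatment has 7 microglia libraries but only 2 non-microglia libraries. PolyA RNA was turned into libraries by a modified Smart-Seq2 protocol, which amplifies small inputs without molecular identifiers. Since nothing in the labels ties a library to an animal, the p-values refer to library-to-library spread, part of which may be technical. How long each fraction was held before lysis is not given either, so dissociation, sorting and the state in the eye cannot be told apart in any level below.

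Total counts ran from 1582451 to 3064027 per library, and levels are given as CPM, counts scaled to library size, on one scale for all 18 libraries. The sort labels held against 8 microglia markers, which summed to 37502 to 46582 CPM in microglia and to 54.6 to 68.0 CPM in non-microglia. The non-microglia level was thus 0.144% of the microglia level. RNA of other retinal cells was present in the microglia libraries, where 7 Mueller glia markers summed to 271 to 925 CPM against 13569 to 15650 in non-microglia. GFP replicates 2 and 5 and TGFB1 replicate 6 were the richest in it.

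Of the 38 genes, 30 passed the filter on low counts in the fit of all 18 libraries. The 8 that did not were Jund, Nr4a2, Nr4a3, Dusp2, Dusp5, Arc, Hspa1a and Hspa1b. In microglia alone 27 passed and in non-microglia alone 24, with 22 in both. Fosb, Klf2, Klf4, Ier5 and Rgs1 passed in microglia only, Fosl1 and Gadd45b in non-microglia only, and Egr3 in neither. A gene that passed through one fraction only was favoured by the filter to differ between fractions, so its difference is a description.

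Promoter windows are shown first for genes that return in the results. They are the 250 bases before the RefSeq transcription start on GRCm38.p6, written 5′ to 3′ on the strand of the gene. In Fos, capitals mark the short form of a cyclic AMP response element (TGACGT), whose first base lies 66 bases before the start, and a TATA box (TATAAA) 33 bases before it. In Dusp1 and Btg2, capitals mark the whole element (TGACGTCA), bound by CREB and ATF factors. In Zfp36 they mark a CArG box, the site of serum response factor. In the pair of HSP70 genes they mark the core of a heat shock element (GAANNTTC).
Fos, chr12:85473640-85473889, plus strand: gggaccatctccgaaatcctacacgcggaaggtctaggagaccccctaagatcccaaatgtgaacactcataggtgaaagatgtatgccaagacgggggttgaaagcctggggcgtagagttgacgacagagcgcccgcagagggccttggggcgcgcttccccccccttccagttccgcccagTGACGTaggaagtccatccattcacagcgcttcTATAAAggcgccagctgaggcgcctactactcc
Dusp1, chr17:26508473-26508722, minus strand: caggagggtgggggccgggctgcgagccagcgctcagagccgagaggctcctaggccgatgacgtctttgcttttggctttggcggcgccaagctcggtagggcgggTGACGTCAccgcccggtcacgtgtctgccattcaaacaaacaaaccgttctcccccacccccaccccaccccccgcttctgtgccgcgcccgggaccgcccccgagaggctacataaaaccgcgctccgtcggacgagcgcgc
Btg2, chr1:134079156-134079405, minus strand: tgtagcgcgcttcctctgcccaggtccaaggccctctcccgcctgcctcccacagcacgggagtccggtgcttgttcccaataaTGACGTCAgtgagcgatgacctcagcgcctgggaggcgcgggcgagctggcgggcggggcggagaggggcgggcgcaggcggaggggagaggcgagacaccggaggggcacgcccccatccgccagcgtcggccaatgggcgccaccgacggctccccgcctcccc
Zfp36, chr7:28379229-28379478, minus strand: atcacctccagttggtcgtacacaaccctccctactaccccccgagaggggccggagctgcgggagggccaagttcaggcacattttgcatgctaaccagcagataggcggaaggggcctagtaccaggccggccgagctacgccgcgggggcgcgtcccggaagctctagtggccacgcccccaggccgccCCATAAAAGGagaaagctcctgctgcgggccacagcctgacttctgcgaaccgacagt
Hspa1a, chr17:34972157-34972406, minus strand: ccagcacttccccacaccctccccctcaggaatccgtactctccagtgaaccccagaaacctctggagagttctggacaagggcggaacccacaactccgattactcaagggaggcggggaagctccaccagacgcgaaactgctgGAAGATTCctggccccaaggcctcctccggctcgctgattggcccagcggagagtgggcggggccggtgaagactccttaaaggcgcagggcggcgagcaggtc
Hspa1b, chr17:34959239-34959488, minus strand: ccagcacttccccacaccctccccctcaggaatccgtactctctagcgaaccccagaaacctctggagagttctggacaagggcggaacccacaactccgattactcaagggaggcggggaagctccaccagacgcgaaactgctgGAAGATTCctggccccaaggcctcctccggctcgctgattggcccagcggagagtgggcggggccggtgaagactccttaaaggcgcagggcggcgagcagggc

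A window was found for 30 of the 38 genes. Rgs1, Arc, Bhlhe40, Hsp90aa1, Egr3, Egr1, Ier2 and Fosl1 have none in the RefSeq table. Both strands were searched in these windows and in all 32841 windows of the same length. TGACGTCA was in 3 of the 30 (Btg2, Dusp1 and Ppp1r15a) and in 1.55% of all windows. TGACGT, which also counts every TGACGTCA, was in 10 (Atf3, Btg1, Btg2, Dusp1, Dusp5, Egr2, Fos, Nr4a3, Ppp1r15a and Rgs2) and in 6.47% of all windows. The CArG box was in 3 (Dusp5, Egr2 and Zfp36) and in 1.47%. TATAAA was in 5 (Btg1, Fos, Gadd45b, Nr4a2 and Zfp36l1) and in 12.4%, and GAANNTTC in 4 (Fosl2, Hspa1a, Hspa1b and Jun) and in 6.70%. An AP-1 site (TGACTCA or TGAGTCA) was in 0 of the 30 and in 4.46% of all windows. These are matches of letters and say nothing of binding.

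The first comparison asks where these genes were expressed. Of the 22 genes that passed the filter in each fraction alone, 17 were higher in microglia and 2, Bhlhe40 and Hsp90aa1, were lower in each treatment (edgeR quasi-likelihood test, adjusted p under 0.05). Of all 9903 genes that passed in both, 33.1% were higher and 23.9% lower in GFP retinas, and 34.3% and 24.0% in TGFB1 retinas. As a description that includes genes which passed through one fraction only, 23 of 30 were higher in GFP retinas, 3 were lower and 4 did not pass. Over all 15321 genes tested, 29.9% were higher and 34.2% lower, 64.2% in all, and 67.1% had an unadjusted p under 0.05. In TGFB1 retinas, which are other libraries, 22 were higher and 3 lower, against 30.8% and 34.4% of all genes, 65.2% in all. The same 22 genes were higher in both, and the same 3, Fosl1, Bhlhe40 and Hsp90aa1, were lower in both. The median log2 fold change of the 30 was 1.97 in GFP and 1.88 in TGFB1 retinas, beside -0.06 and -0.04 over all genes.

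**Figure D1:**
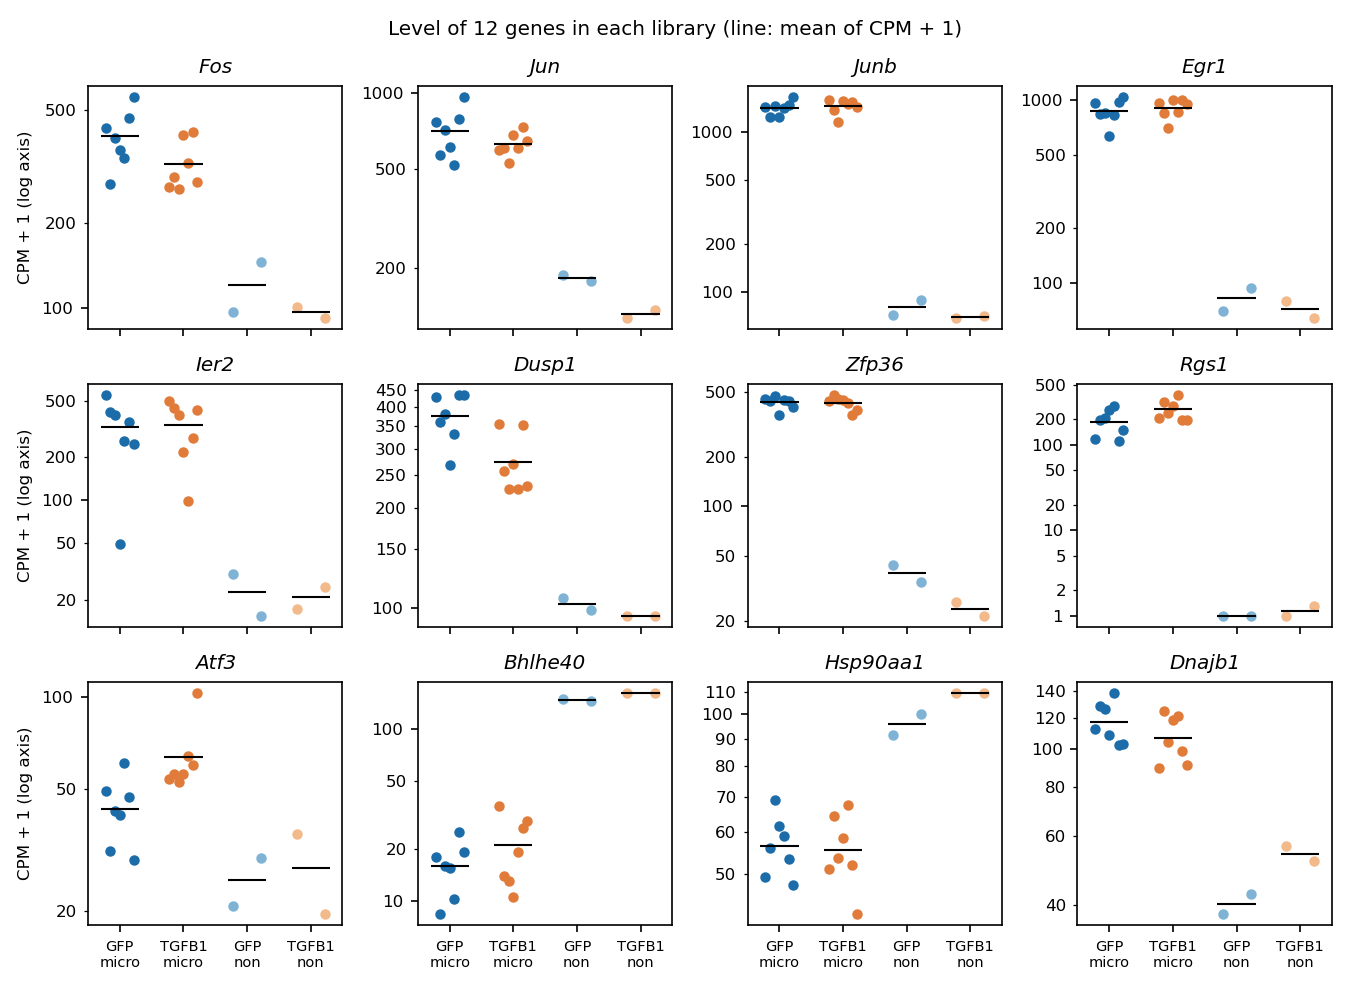
Level of 12 of the genes in each library as CPM + 1 on a log axis, with 1 point per library and a line at the mean of each group (GFP and TGFB1 microglia, n = 7 each, GFP and TGFB1 non-microglia, n = 2 each). Fos, Jun, Junb, Egr1, Ier2, Dusp1, Zfp36, Rgs1 and Dnajb1 lie higher in every microglia library than in any non-microglia library, while Bhlhe40 and Hsp90aa1 lie lower.

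The AP-1 subunits of the JUN family were abundant in microglia. Junb, which encodes a subunit often opposed to JUN (ENSMUSG00000052837, GRCm38 chromosome 8, 84974484 to 84978718), ranged from 1240.2 to 1664 CPM in GFP microglia with a median of 1451, against 71.1 and 87.6 CPM in the GFP non-microglia libraries. The lowest microglia library was far above the highest non-microglia library. The log2 fold change was 4.16 (SE 0.152, edgeR adjusted p = 1.28e-17), and in TGFB1 retinas it was 4.42 (SE 0.154, edgeR adjusted p = 5.65e-18). Jun (ENSMUSG00000052684, chromosome 4, 95049034 to 95052222) ranged from 516 to 965 CPM in GFP microglia with a median of 715, against 177 and 186 CPM in non-microglia. This is a smaller difference than for Junb (edgeR log2 fold change 1.95, SE 0.190, adjusted p = 1.55e-08). Jund was near the detection limit everywhere, at 0 to 3.53 CPM in microglia and 1.17 to 2.28 CPM in non-microglia. Of its exon bases 52.6% also belong to Gm11175 on the other strand. Since the strand setting of the counting is not given, reads of the overlapping genes cannot be told apart. Whether reads in shared exons were counted is not given either, so the Jund level may be too low.

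The FOS family was split. Fos (ENSMUSG00000021250, chromosome 12, 85473890 to 85477273) ranged from 274 to 555 CPM in GFP microglia with a median of 397, against 95.8 and 144 CPM in non-microglia (edgeR log2 fold change 1.75, SE 0.263, adjusted p = 1.66e-05). In TGFB1 microglia it ranged from 262 to 418 CPM, against 90.6 and 99.8. Fosb was scarce and uneven, at 2.30 to 22.9 CPM in GFP microglia and 0.435 to 11.7 CPM in TGFB1 microglia. In non-microglia it had 0.294 and 1.68 CPM with GFP and 0.326 and 1.30 CPM with TGFB1, so the ranges overlapped in TGFB1 retinas. It passed the filter through microglia only. Fosl2 lay between 7.06 and 18.3 CPM in all 18 libraries, with log2 fold changes of -0.04 and -0.31 that did not pass.

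Fosl1, whose product FRA1 lacks the activation domain of FOS, went the other way. Its counts were 8.52 and 12.5 CPM in GFP non-microglia and 13.7 and 19.5 CPM in TGFB1 non-microglia, against 0 to 3.57 CPM over the 14 microglia libraries. No library of one fraction reached the range of the other (log2 fold change -4.39 in GFP and -4.37 in TGFB1 retinas), and it passed the filter through non-microglia only. Of its exon bases 57.2% are shared with Ccdc85b on the other strand, and reads of the pair cannot be told apart.

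Of the repressors, Atf3, a stress-induced bZIP factor, was modestly higher in microglia. It ranged from 28.3 to 59.8 CPM in GFP microglia and was 19.7 and 28.6 CPM in the matching non-microglia, so the ranges just touched (edgeR log2 fold change 0.80, SE 0.303, adjusted p = 0.0274). That call was lost without GFP non-microglia replicate 1 (edgeR adjusted p = 0.234), without the 3 microglia libraries rich in Mueller glia RNA (0.0640) and with RLE size factors (0.0585). In TGFB1 retinas the log2 fold change was 1.23 (edgeR adjusted p = 0.00134). Bhlhe40, a basic helix-loop-helix repressor linked to the circadian clock, was the clearest gene of the other retinal cells. It was 146 and 150.1 CPM in GFP non-microglia against 7.39 to 24.1 CPM in GFP microglia (edgeR log2 fold change -3.29, SE 0.322, adjusted p = 9.44e-08). In TGFB1 retinas it was 161 and 163 against 9.57 to 34.9 CPM (log2 fold change -3.03).

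All 3 EGR zinc finger factors were higher in microglia in both treatments. Egr1 (ENSMUSG00000038418, chromosome 18, 34859823 to 34864984) ranged from 638 to 1039 CPM in GFP microglia with a median of 846, against 69.3 and 93.3 CPM in non-microglia (edgeR log2 fold change 3.43, SE 0.194, adjusted p = 1.02e-12). Egr2 was far scarcer, at 8.87 to 17.1 CPM against 1.68 and 3.52 (edgeR log2 fold change 2.15, adjusted p = 5.31e-05). Egr3 had 1.85 to 7.23 CPM against 1.35 and 1.47 (edgeR log2 fold change 1.48, adjusted p = 0.0329), but 6 of 13 alternative fits did not call it. These were the fits without a low-count filter, with DESeq2, without GFP microglia replicate 2 or 4, and without either GFP non-microglia library (adjusted p between 0.0532 and 0.138, edgeR or DESeq2). In TGFB1 retinas the Egr3 call was lost without non-microglia replicate 1 or 2 (edgeR adjusted p = 0.107 and 0.0632). The NR4A nuclear receptors did not follow the EGR factors. Nr4a1 was 5.32 to 30.0 CPM in GFP microglia, around the 14.98 and 18.2 CPM of non-microglia (edgeR log2 fold change -0.25, SE 0.466, adjusted p = 0.660). In TGFB1 retinas it was called lower in microglia only with no low-count filter (edgeR adjusted p = 0.0392). Nr4a2 and Nr4a3 stayed at or under 2.04 CPM in every library.

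The Kruppel-like factors Klf2, Klf4 and Klf6 were higher in microglia in both treatments. Klf6 ranged from 175 to 229 CPM in GFP microglia against 50.8 and 55.2 CPM (edgeR log2 fold change 2.01, SE 0.134, adjusted p = 2.00e-12). Klf2 was 13.3 to 26.7 CPM against 0.294 and 1.68 CPM, and Klf4 8.23 to 25.9 CPM against 0.674 and 1.47 CPM. Both of these passed the filter only through the microglia.

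Among the immediate early response genes, Ier2, a nuclear protein gene of the primary response, was high in microglia but uneven, at 48.9 to 548 CPM in GFP microglia with a median of 352, against 14.5 and 29.4 CPM (edgeR log2 fold change 3.86, SE 0.856, adjusted p = 0.00106). Ier5 was 15.01 to 29.4 CPM against 2.02 and 2.94 CPM. Ier3, which is linked to cell survival, did not differ beyond its spread, at 14.04 to 30.0 CPM in GFP microglia and 19.5 and 30.5 CPM in non-microglia.

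Of the growth arrest and stress recovery genes, the antiproliferative Btg1 and Btg2 and the phosphatase subunit gene Ppp1r15a, whose product restores translation after stress, were higher in microglia. Btg2 ranged from 424 to 540.2 CPM in GFP microglia against 92.8 and 98.7 CPM (edgeR log2 fold change 2.33, SE 0.145, adjusted p = 5.81e-13). Ppp1r15a ranged from 97.0 to 121 CPM, while both non-microglia libraries had 44.1 CPM (edgeR log2 fold change 1.28, SE 0.128, adjusted p = 4.10e-09). Gadd45b was scarce, at 0.369 to 5.06 CPM in GFP microglia and 4.70 and 8.08 CPM in non-microglia, and it passed the filter through non-microglia only.

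The feedback genes were high in microglia as well. Dusp6, a phosphatase of the ERK kinases, ranged from 604 to 869.9 CPM in GFP microglia against 129 and 132 CPM (edgeR log2 fold change 2.49, SE 0.133, adjusted p = 3.00e-14). Dusp1, which acts on p38, JNK and ERK and has the whole cyclic AMP response element printed above, ranged from 267 to 434 CPM against 97.99 and 106 CPM (edgeR log2 fold change 1.88, SE 0.207, adjusted p = 1.15e-07). Dusp2 and Dusp5 stayed at or under 3.27 CPM. Zfp36, which encodes tristetraprolin, a protein that destabilises cytokine mRNAs, ranged from 361 to 468 CPM against 33.7 and 43.2 CPM (edgeR log2 fold change 3.47, SE 0.146, adjusted p = 2.13e-16). Zfp36l1, its relative, differed less (edgeR log2 fold change 0.98, adjusted p = 3.46e-07), and 55.9% of its exon bases are shared with Gm26669 on the other strand.

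The regulators of G protein signalling gave the widest contrast. Rgs1, known from immune cells, had 109 to 279 CPM in GFP microglia with a median of 190.3, while no read was counted in either GFP non-microglia library. Against a floor of 3 counts in each of the GFP non-microglia libraries, Rgs1 was at least 195-fold higher in microglia. In TGFB1 retinas 1 read was counted in non-microglia, and the ratio of the levels was 1560 with a 95% counting interval of 280 to 61617, which covers counting error only. Rgs2 differed less, at 164 to 252 CPM against 43.8 and 54.3 CPM (edgeR log2 fold change 1.98, SE 0.177, adjusted p = 6.98e-10).

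The heat shock chaperones did not move as a group. Dnajb1, an HSP40 co-chaperone, was higher in microglia, at 101 to 138 CPM in GFP retinas against 37.0 and 41.8 CPM (edgeR log2 fold change 1.56, SE 0.156, adjusted p = 4.21e-09). Hsp90aa1, the inducible HSP90, was lower in microglia, at 46.6 to 67.9 CPM against 90.5 and 99.3 CPM (edgeR log2 fold change -0.77, SE 0.142, adjusted p = 4.21e-05). The inducible HSP70 genes Hspa1a and Hspa1b had at most 7.36 and 3.68 CPM in any library, and 66 and 24 counts over all 18. Their transcripts share 63.8% and 67.6% of their 31-base words, so counts between the pair are uncertain. Whether reads that match both genes were counted is not given, so both totals may be too low. The promoter windows printed above are identical at 247 of 250 bases. Arc, an activity gene of neurons, had 0 to 1.09 CPM in microglia and 0 to 4.87 CPM in non-microglia.

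**Figure D2:**
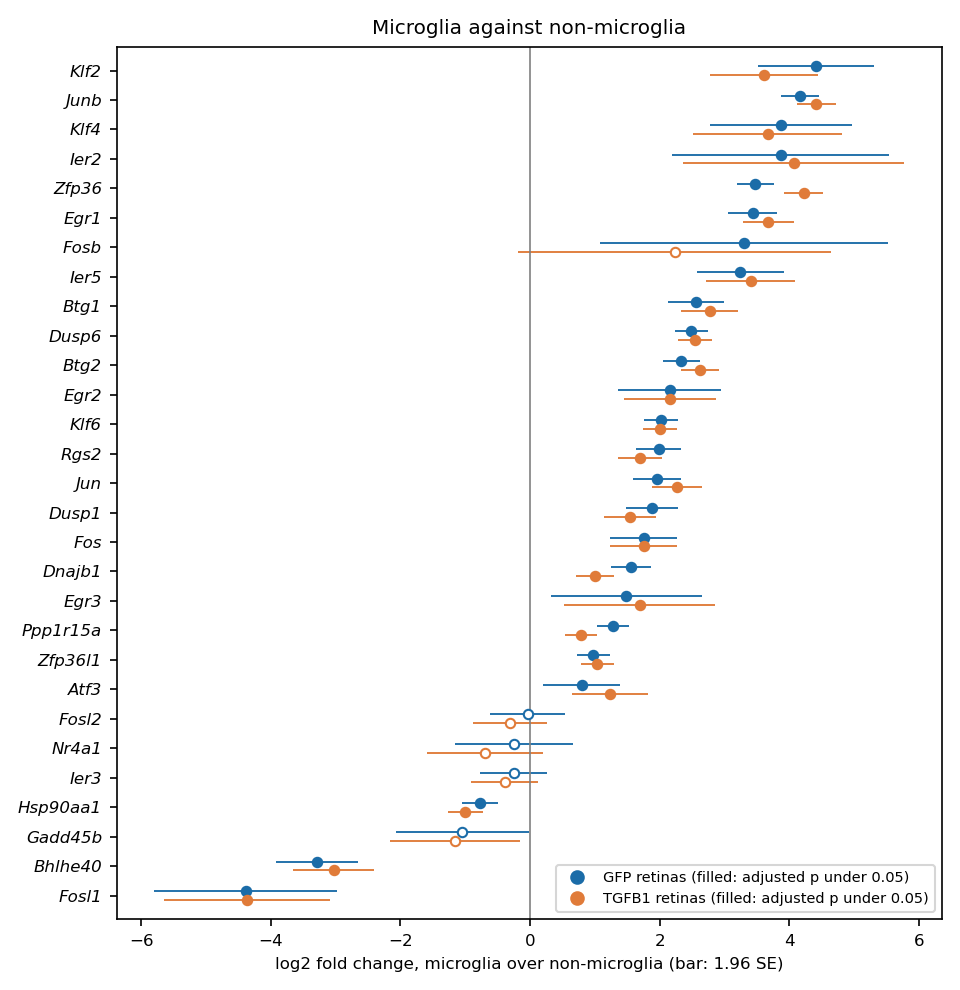
Log2 fold change of microglia over non-microglia for 29 genes, in GFP retinas and in TGFB1 retinas. Filled points mark an edgeR adjusted p under 0.05. Bars are approximate 95% intervals, from the SE under a normal distribution, and can leave out 0 where the unadjusted edgeR p is over 0.05. Rgs1 is left out because its non-microglia counts were 0 or 1. Klf2 (4.41) and Junb (4.16) lie farthest right in GFP retinas and Junb (4.42) and Zfp36 (4.22) in TGFB1 retinas, with Fosl1 and Bhlhe40 farthest left in both.

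Over the 30 genes tested, ranges of the fractions did not overlap for 22 higher and 3 lower in GFP retinas, against 29.0% and 34.4% of all genes. Counts of this kind include genes that passed the filter through one fraction only, so they are a description. In TGFB1 retinas the ranges did not overlap for 22 higher and 5 lower, against 30.0% and 34.5%. There Nr4a1 and Gadd45b joined the lower genes without passing the test in the main fit. Gadd45b was near the threshold (edgeR adjusted p = 0.0519), and 5 of 13 alternative fits called it lower. Among these were RLE size factors (edgeR adjusted p = 0.0317) and DESeq2 (adjusted p = 0.0460). The 0.144% of microglia marker level in non-microglia corresponds to at most 2.81% of the non-microglia level, reached by Junb, for every gene but Rgs1. For Rgs1 that share would be 0.318 CPM, beside 0.0812 CPM measured. In the other direction, the Mueller glia markers in microglia were 3.39% of their non-microglia level. That share of the Fosl1 level would give 0.459 CPM, beside 0.664 CPM measured on average in microglia. Without the 3 microglia libraries richest in Mueller glia RNA, 22 genes were higher and 3 lower in GFP retinas, and 22 and 4 in TGFB1 retinas. Non-microglia pool several cell types, and fewer cells of a type and less RNA per cell cannot be told apart in such libraries.

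Levels of different genes were compared per kilobase of exon. In microglia the order was led by Junb at 625 CPM per kb, followed by Dusp6 at 240.1, Ier2 at 216, Jun at 208, Egr1 at 199, Btg2 at 177, Fos at 154, Zfp36 at 123 and Dusp1 at 98.1. Junb lay above 99.6% of the genes tested on this scale and Fos above 98.4%. In non-microglia the order was Jun at 48.8, Fos at 45.7, Dusp6 at 41.9, Bhlhe40 at 32.9, Junb at 32.1, Btg2 at 31.9, Dusp1 at 29.5, Zfp36l1 at 27.5 and Hsp90aa1 at 25.9 CPM per kb. Fos and Jun thus led the list in the other retinal cells, whereas Junb led it in microglia. The rank of a gene with shared exons is uncertain in the same way as its count.

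Related genes outside the 38 gave a mixed picture in the same comparison in GFP retinas. Counts here are first over genes that passed in both fractions, beside 33.1% higher and 23.9% lower of all such genes. They are then given, as a description, over all tested, beside 29.9% higher and 34.2% lower of all genes. Of 11 other immediate early genes 5 were higher and 2 lower in microglia, and of 18 tested 7 and 6. Sgk1, a serum-induced kinase gene, had 1735 ± 207 CPM in GFP microglia (SD, n = 7) against 33.9 ± 7.71 in non-microglia (n = 2). The proto-oncogene Myc had 115 ± 15.5 against 11.9 ± 1.81 CPM, and the kinase gene Plk3 27.7 ± 8.32 against 0.630 ± 0.0608 CPM. Of 16 other chaperones 7 were higher and 6 lower, and of 19 tested 7 and 8. Hspa5, the chaperone BiP of the endoplasmic reticulum, had 947 ± 58.4 against 483 ± 20.9 CPM, while the lens and glial chaperone Cryab had 5.76 ± 4.34 against 189 ± 5.73 CPM and Hspa4l 8.44 ± 2.81 against 90.5 ± 1.25 CPM. Of 16 upstream kinases and factors 8 were higher and 2 lower, as they were of 17 tested. Among the higher were the MAP kinase kinase gene Map2k1 (log2 fold change 1.55), the MAP kinase gene Mapk3 (1.62) and the serum response partner Elk3 (3.19).

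Of other genes known to rise during dissociation, 6 passed in both fractions. Of these, 4 were higher in microglia and 2 lower in GFP retinas, and 4 and 1 in TGFB1 retinas. Over all genes that passed in both, 33.1% were higher and 23.9% lower in GFP retinas, and 34.3% and 24.0% in TGFB1 retinas. Another 5 dissociation genes passed in microglia only. Over all 11 tested, 9 were higher in each treatment, beside 29.9% of all genes in GFP and 30.8% in TGFB1 retinas. That count includes the genes that passed in microglia only, so it is a description. The chemokine genes Ccl3 and Ccl4 had 113 ± 15.9 and 69.0 ± 14.4 CPM in GFP microglia (SD, n = 7) against 0 and 0.168 ± 0.238 in non-microglia (n = 2). Socs3, a cytokine feedback gene, had 451 ± 63.1 against 42.0 ± 19.1 CPM. Gem, a small GTPase gene, was lower in microglia in TGFB1 retinas, at 21.2 ± 3.90 against 101 ± 18.2 CPM (log2 fold change -2.25). The part of dissociation in these levels was not tested.

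The second comparison asks whether TGFB1 delivery changed these genes in microglia. None of the 27 genes tested was called by edgeR, against 0.310% of all 10970 genes. DESeq2 and limma voom also called 0 of them. Of the 9 alternative settings, 3 called 1 to 3 genes, among them a block for the replicate number, so the count of 0 is not stable across fits. At an unadjusted p under 0.05 there were 4, beside 6.65% of all genes, and 11 log2 fold changes were positive and 16 negative with a median of -0.04 (all genes 0.00). None was higher or lower by test, against 0.237% of all genes higher and 0.0729% lower. No gene separated the 7 TGFB1 from the 7 GFP libraries completely, against 0.182% of all genes higher and 0.0365% lower.

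The 4 genes with the smallest p are given with their values. Egr2, which encodes a zinc finger factor, ranged from 8.87 to 17.1 CPM in GFP microglia with a median of 11.6, and from 12.1 to 26.7 CPM in TGFB1 microglia with a median of 22.4. The ranges overlapped, and the log2 fold change of 0.77 (SE 0.204) did not pass (edgeR adjusted p = 0.156). Dusp1 ranged from 267 to 434 CPM with a median of 380.1 in GFP microglia and from 226 to 354 CPM with a median of 256 in TGFB1 microglia (edgeR log2 fold change -0.47, SE 0.140, adjusted p = 0.379). Atf3 had medians of 41.4 CPM and 55.1 CPM (edgeR log2 fold change 0.57, SE 0.185, adjusted p = 0.428), and Ppp1r15a of 106 and 97.4 CPM (edgeR log2 fold change -0.19, SE 0.0791, adjusted p = 0.616). Without a filter on low counts Egr2, Dusp1 and Atf3 passed (edgeR adjusted p = 0.0416, 3.69e-05 and 0.00202). With a covariate for the libraries that hold Xist RNA, Dusp1 alone passed (edgeR adjusted p = 0.0158). With a block for the replicate number, Egr2, Dusp1 and Rgs1 passed (edgeR adjusted p = 0.0273, 0.0192 and 0.00297). Whether these numbers pair the libraries is uncertain.

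Several of the most abundant genes moved little in microglia. The log2 fold change was 0.03 for Junb (SE 0.0729), 0.04 for Egr1 (SE 0.103), 0.07 for Dusp6 (SE 0.0710), 0.01 for Btg2 (SE 0.0797) and -0.02 for Zfp36 (SE 0.0660). It was -0.17 for Jun (SE 0.128), and for Ier2 it was 0.04 with a wide SE of 0.437. Dusp1, given above, and Fos moved more than these, without passing. Fos was at 404 ± 92.02 CPM in GFP and 321 ± 66.1 CPM in TGFB1 microglia (SD, n = 7 each), a log2 fold change of -0.34 (SE 0.166, edgeR adjusted p = 0.778). Rgs1 was at 185 ± 65.6 and 257 ± 70.8 CPM (edgeR log2 fold change 0.47, SE 0.242, adjusted p = 0.807). Of the settings run, only the replicate block called Rgs1 (edgeR adjusted p = 0.00297). Of the related lists, Sgk1 was the one gene called, at 1735 ± 207 in GFP and 2230 ± 203 CPM in TGFB1 microglia (edgeR log2 fold change 0.36, SE 0.0666, adjusted p = 0.00977). It was 1 of 12 other immediate early genes tested, while 0 of 16 chaperones, 0 of 16 upstream genes and 0 of 11 dissociation genes were called.

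**Figure D3:**
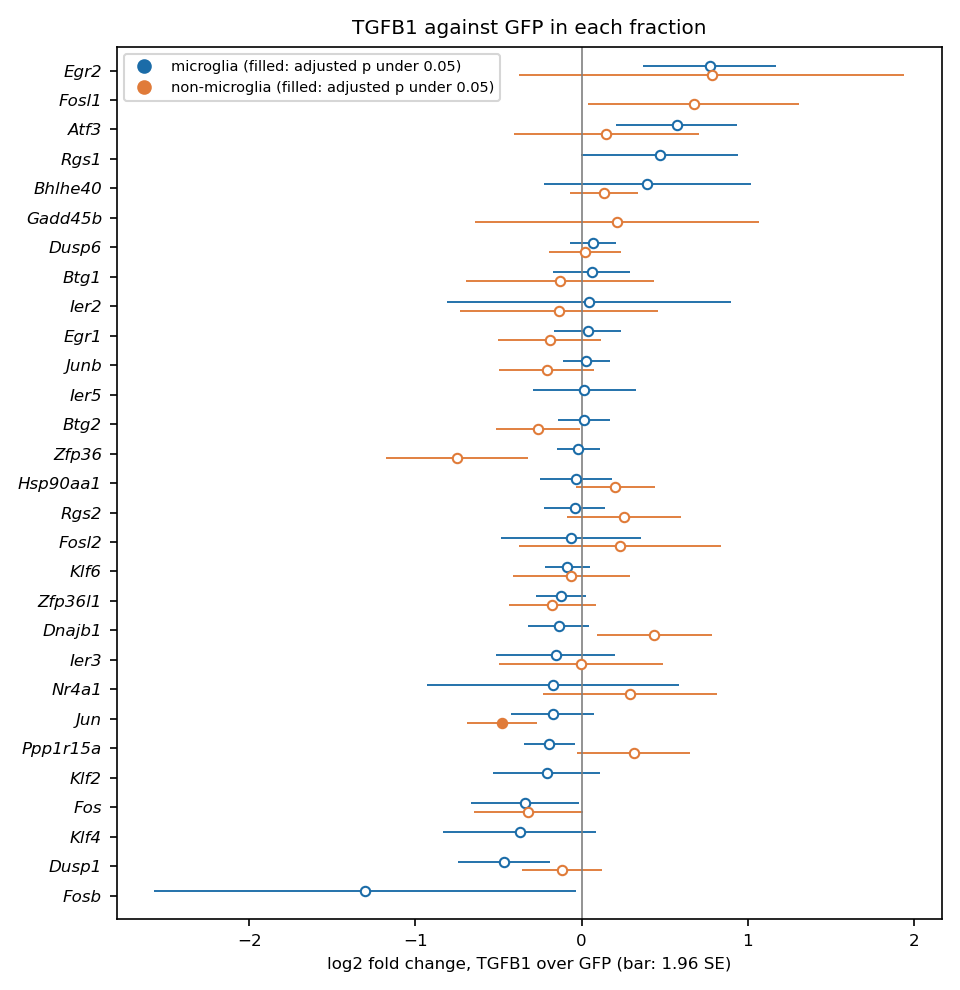
Log2 fold change of TGFB1 over GFP for each gene tested in microglia and in non-microglia. Filled points mark an edgeR adjusted p under 0.05. Bars are approximate 95% intervals, from the SE under a normal distribution, and can leave out 0 where the unadjusted edgeR p is over 0.05. Jun in non-microglia is the only filled point, at -0.48. Most microglia points lie close to 0, with Fosb at -1.30, Egr2 at 0.77, Atf3 at 0.57, Rgs1 at 0.47 and Dusp1 at -0.47 farther out.

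In non-microglia, with 2 libraries per treatment, 1 of the 24 genes tested was called, against 0.390% of all 13598 genes in either direction, 0.338% higher and 0.0515% lower. Jun had 177 and 186 CPM in GFP non-microglia and 125 and 135 CPM in TGFB1 non-microglia. The pairs did not overlap, and the log2 fold change was -0.48 (SE 0.107, edgeR adjusted p = 0.0386). The call depends on the fit: DESeq2 gave an adjusted p of 0.124 for Jun, the fit of all 18 libraries did not call it (edgeR unadjusted p = 0.0338), and without GFP replicate 1, TGFB1 replicate 1 or TGFB1 replicate 2 edgeR gave 0.0561, 0.396 and 0.0734. Microglia markers summed to 62.0 and 68.0 CPM in the GFP and to 60.3 and 54.6 CPM in the TGFB1 libraries, and Mueller glia markers to 15063 and 15650 CPM and to 13569 and 14118 CPM. Cone markers fell between 1543 and 1823 CPM in the GFP libraries and between 751 and 1100 CPM in the TGFB1 libraries, and bipolar markers were 1350.4 and 1442 against 2093 and 2384 CPM. Erythroid markers were 654 and 731 against 265 and 276 CPM, and rod markers 257 and 336 against 145 and 186 CPM. The part of these cells in the Jun level was not tested.

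Zfp36 had 33.7 and 43.2 CPM in GFP and 20.5 and 25.1 CPM in TGFB1 non-microglia, a log2 fold change of -0.75 (SE 0.218) that did not pass (edgeR adjusted p = 0.204), except when GFP replicate 2 was left out (edgeR adjusted p = 0.0412). Dnajb1 had 37.0 and 41.8 against 50.7 and 55.4 CPM (edgeR log2 fold change 0.44, adjusted p = 0.522), and Fosl1 a log2 fold change of 0.68 (edgeR adjusted p = 0.644). These with Jun are the 4 genes at an unadjusted p under 0.05, beside 7.63% of all genes. Fos had 95.8 and 144 against 90.6 and 99.8 CPM and passed only without GFP replicate 1 (edgeR adjusted p = 0.00670). The pairs of libraries did not overlap for 7 genes higher and 6 lower, beside 17.5% and 18.9% of all genes. None of the 16 other immediate early genes, 19 chaperones, 17 upstream genes and 6 dissociation genes tested was called.

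Whether the treatment effect differed between the fractions was tested directly, and 0 of 30 genes were called by edgeR and 0 by DESeq2, against 0.0131% of all genes. At an unadjusted p under 0.05 there were 3, beside 4.64% of all genes. The largest of these was Zfp36, whose effect was 0.74 higher on the log2 scale in microglia (SE 0.182, edgeR adjusted p = 0.667), followed by Dnajb1 (-0.56, SE 0.206) and Ppp1r15a (-0.49, SE 0.172). The difference for Jun was 0.32 (SE 0.239), so its call in one fraction does not show a difference between them.

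The genes also differed in how much they varied between microglia libraries. As a description, the dispersion of each gene over the 14 libraries, after its treatment mean, was set against the trend at the same abundance. It lay above the trend for 14 of 27 genes, 51.9%, against 25.9% of all genes, and the median ratio was 1.04 against 0.784. Ier2 had 20.1 times the trend and ran from 48.9 CPM in GFP replicate 5 to 548 CPM in GFP replicate 2, an 11.2-fold range. In TGFB1 microglia Ier2 was lowest in replicate 6, at 98.1 CPM. These 2 lowest libraries and the highest are the 3 richest in Mueller glia RNA, whose part in the spread was not tested. Fosb had 7.66 times the trend, Rgs1 5.99, Nr4a1 3.999, Bhlhe40 3.21, Fos 2.78, Atf3 2.33 and Dusp1 2.03. Ppp1r15a, Klf6 and Zfp36 varied less than the trend, with ratios of 0.587, 0.647 and 0.697, so that Zfp36 stayed within 360.2 to 477 CPM in all 14 libraries.

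**Figure D4:**
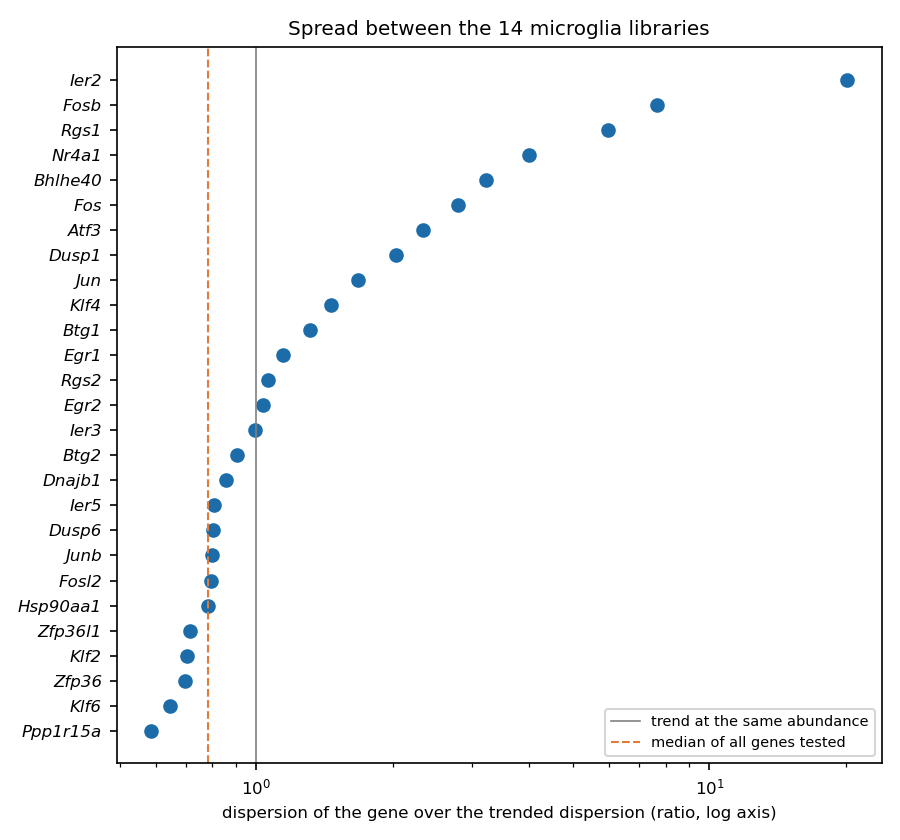
Dispersion of each of the 27 genes between the 14 microglia libraries, divided by the trended dispersion at the same abundance, on a log axis, with a line at the trend and a dashed line at the median of all genes tested (0.784). Ier2 stands at 20.1, and Ppp1r15a is lowest at 0.587.

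Of 8 relations across the 14 microglia libraries, computed on log2(CPM + 1), the relation of Fos to Jun was the strongest. Pearson's r was 0.87 (permutation p = 7.00e-05, adjusted p = 0.000560 over the 8) and Spearman's rho 0.87 (permutation p = 0.000140, adjusted p = 0.00112). It was 0.92 within GFP and 0.83 within TGFB1 microglia, and 0.75 without GFP replicates 7 and 8, the libraries farthest from the median of Fos. Fos and Jun encode the partners of the classical AP-1 dimer. Fos and Dusp1 had r = 0.64 (permutation p = 0.0158, adjusted p = 0.0422) and rho 0.64 (permutation p = 0.0163, adjusted p = 0.0326). The r fell to 0.46 without the same pair of libraries and to 0.48 after centring on treatment (permutation adjusted p = 0.166). Within GFP and within TGFB1 microglia it was 0.61 and 0.35, which was not tested. Leaving out libraries for their Fos level narrows its range, so the fall to 0.46 does not show that the relation rests on them. Fos and Egr1 had r = 0.46 (permutation p = 0.102, adjusted p = 0.204) and rho 0.65 (permutation p = 0.0139, adjusted p = 0.0326). Their r was 0.27 without GFP replicates 7 and 8, and 0.61 within GFP and 0.59 within TGFB1 microglia, which was not tested.

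Fos did not track the other measures within what 14 libraries can show. Its r was 0.08 with Nr4a1, 0.00 with Hspa1a, 0.15 with the summed Mueller glia markers and -0.00 with the log2 total count (permutation adjusted p = 0.997, 0.997, 0.961 and 0.997). Within GFP and within TGFB1 microglia, r was -0.07 and 0.36 with Nr4a1 and -0.58 and 0.40 with Hspa1a. It was -0.13 and 0.08 with the Mueller glia markers and -0.13 in each with the total count. These values within a treatment were not tested. Hspa1a and Hspa1b had r = 0.81 (permutation p = 0.000500, adjusted p = 0.00200) and rho 0.65 (permutation p = 0.0154, adjusted p = 0.0326), with 0.63 without GFP replicate 6 and TGFB1 replicate 8. Both have few counts and share sequence, so how reads fell between the pair is uncertain.

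Xist, an RNA of the inactive X chromosome, was at 707 CPM or more in 6 microglia libraries and at or under 1.41 CPM in the other 8. The 6 are replicates 2, 7 and 8 of both treatments. The labels give no sex, so Xist cannot be told apart from whatever else these replicate numbers share, and the values are a description with no test. Of the 27 genes, 0 were higher and 1 lower in all 6 than in all 8, beside 0.173% and 0.255% of all genes. That gene was Hsp90aa1, at 41.1 to 52.3 CPM against 52.5 to 67.9 CPM. Within each treatment taken alone, Bhlhe40 was higher and Rgs1 and Hsp90aa1 were lower without overlap, beside 0.365% higher and 0.583% lower of all genes. Rgs1 ranged from 109 to 203 CPM in libraries with Xist and from 190.3 to 379 CPM in those without. Of the genes outside the 38, the constitutive HSP70 gene Hspa8 and the NF-kappa-B inhibitor gene Nfkbia were lower with Xist too, at 393 to 479 against 481 to 603 CPM and at 118 to 145 against 199.8 to 337 CPM. They are 2 of 70 genes in the related lists, and the other 68 overlapped between the sets. These 2 were named after their values were seen.

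**Figure D5:**
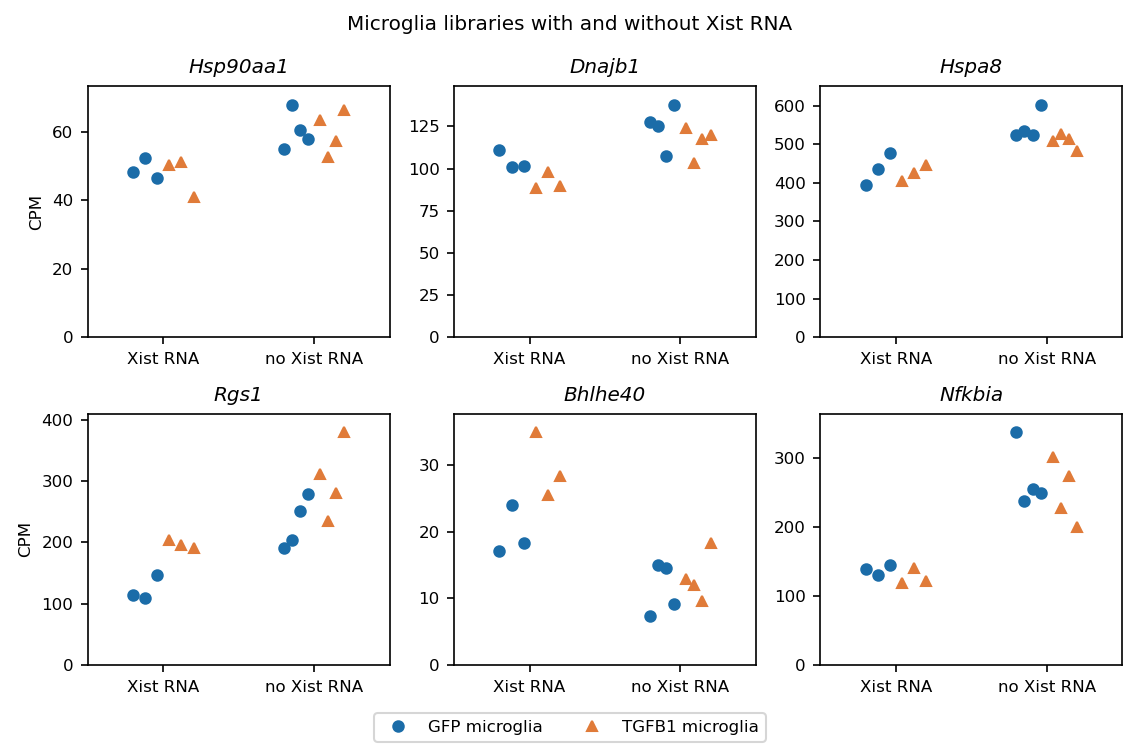
Level in CPM of Hsp90aa1, Dnajb1, Hspa8, Rgs1, Bhlhe40 and Nfkbia in the 6 microglia libraries with Xist RNA and the 8 without, with 1 point per library, circles for GFP and triangles for TGFB1. Hsp90aa1, Hspa8 and Nfkbia do not overlap between the sets, while Dnajb1 does.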

How the data were processed

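RNA was measured in 18 libraries. The authors deposited 1 table of raw counts per Ensembl gene. Per the submitters' processing notes, STAR, featureCounts, DESeq2 and GRCm38.p6 were used; no source used here gives their versions, the annotation release, how strand was handled or which reads were filtered. Of the identifiers, 54409 were matched to GENCODE M21. Groups came from the sample titles.

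Counts were tested with edgeR 4.0.16 in R 4.3.3 (TMM factors, filterByExpr, quasi-likelihood F test with robust dispersion), with Benjamini-Hochberg adjustment over all genes tested and a threshold of 0.05. Treatments were compared within each fraction alone; fractions and the difference of effects came from 1 fit of 4 groups. CPM uses TMM-scaled sizes of all 18 libraries. SE is the log2 fold change divided by the square root of F. The floor of 3 counts per library and the interval of the Rgs1 ratio cover counting error only. Relations used 100000 permutations, two-sided. Models were tested on simulated data. No libraries were duplicates.

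Named genes are all 38, with those called in any comparison in full, and of the related lists up to 3 called genes per list and comparison with the smallest p. The 38 genes and the lists were chosen with earlier results of these data known. Alternatives were RLE factors, no low-count filter, DESeq2 1.42.0, limma 3.58.1 voom, a replicate block, all 18 libraries, covariates for Mueller glia markers and Xist, and leaving out each library; leaving out 3 libraries rich in Mueller glia RNA was chosen after seeing the data.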

Additional observations from a re-analysis of the deposited data

Results flagged for a closer look

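Among 54 sets of 7 microglia values (27 genes in each treatment), 4 held a library whose gap to its nearest neighbour relative to the range of the set was over the 95% critical value of the Dixon test, which chance passes in about 1 set of 20. Ier2 was at 48.9 CPM in GFP replicate 5 and between 247 and 548 CPM in the other 6 libraries. Atf3 was at 102 CPM in TGFB1 replicate 8 and between 51.8 and 62.8 CPM in the others. Klf6 was at 175 CPM in GFP replicate 4, with the others between 212 and 229 CPM. Junb was at 1160.0 CPM in TGFB1 replicate 4, with the others between 1387 and 1584 CPM. GFP replicate 5 is also among the 3 libraries rich in Mueller glia RNA; its part in the Ier2 value was not tested.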

How the results depend on the processing

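No value changed direction past the threshold under any setting. For TGFB1 against GFP in microglia, 0 genes were called under 6 of 9 settings and in all 14 fits without 1 library, while 3 were called with no low-count filter, 3 with the replicate block and 1 with the Xist covariate. Whether replicate numbers pair the microglia libraries is uncertain. The labels name no shared animal or batch, same-numbered libraries correlated at -0.12 to 0.22 (5 of 7 over 0.1), and replicate 2 alone correlated best with its own number, but Xist RNA was present or absent alike in all 7 numbers. Across the 7 numbers Egr2, Rgs1 and Atf3 were higher and Ppp1r15a lower with TGFB1 in 7 of 7. The block called Egr2, Dusp1 and Rgs1 (edgeR adjusted p = 0.0273, 0.0192 and 0.00297). In non-microglia, where the correlation was -0.07, the count of 1 became 0 with DESeq2 and 0 in the fit of all 18 libraries, and ran from 0 to 2 without 1 library. Microglia against non-microglia gave 24 to 27 calls in each treatment under every setting run, and the difference of effects 0. After centring on treatment, the r of Fos and Dusp1 was 0.48 (permutation adjusted p = 0.166). The cause of these changes was not tested. Precision is limited by 2 non-microglia libraries per treatment and, for genes near 3 counts, by depth.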
